A study of Mus musculus with 30 samples.

Results

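Nppb, Acta1, Ankrd1, Nmrk2, Rcan1, Xirp2, Gdf15 and Ccn2 are genes of the cardiac stress and remodelling response, chosen by name with earlier results known. They were 8 of the 36558 genes in the deposited table of estimated counts, and all of them passed the filter on low counts in heart. The RNA was from hearts and white adipose tissue of C57BL/6J males aged 15 weeks. Mice of the F11 groups had received AAV8-F11, an adeno-associated virus vector that encodes coagulation factor XI, and mice of the GFP groups had received AAV8-GFP, the same kind of vector with green fluorescent protein. All 4 groups had been kept for 7 weeks on high-fat feed combined with l-NAME, which blocks nitric oxide synthases, so every comparison was made within mice under that diet. AAV8 mainly transduces hepatocytes, and the promoter of the vectors is not given in the sources used here. Heart was represented by 7 F11 and 6 GFP libraries, and adipose tissue by 8 F11 and 8 GFP libraries. The labels name 1 more GFP heart, L10, not analysed here. The labels do not say whether each library came from a different mouse, and p-values measure the spread between these libraries.

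A heart under pressure or volume load raises a set of genes, not all of which are low in the healthy adult ventricle. They encode the secreted peptide BNP, the skeletal isoform of actin that is prominent before birth, stretch-responsive proteins of the sarcomere and the intercalated disc, feedback inhibitors of calcineurin signalling, and secreted factors that act on the matrix and on other organs. These genes are widely used as readouts of load on cardiomyocytes, and several of them are also transcribed in fibroblasts and other cells.

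The genes lie on 6 chromosomes of GRCm38 (GENCODE vM21). On the plus strand are Nppb (ENSMUSG00000029019, chr4:147985788-147987205), Xirp2 (ENSMUSG00000027022, chr2:67446002-67526614) and Ccn2 (ENSMUSG00000019997, chr10:24595442-24598683). On the minus strand are Acta1 (ENSMUSG00000031972, chr8:123891769-123894751), Ankrd1 (ENSMUSG00000024803, chr19:36111961-36120099), Nmrk2 (ENSMUSG00000004939, chr10:81198170-81202051), Rcan1 (ENSMUSG00000022951, chr16:92391953-92470867) and Gdf15 (ENSMUSG00000038508, chr8:70629393-70632456). The promoters of Nppb, Acta1, Ankrd1 and Xirp2 are shown because the 3 highest correlations between hearts were found among these genes. Each is the 250 bases before the start of the gene in RefSeq (GRCm38.p6), on the gene's own strand, and capitals mark matches to 3 motifs.
Nppb, chr4:147985650-147985899, plus strand: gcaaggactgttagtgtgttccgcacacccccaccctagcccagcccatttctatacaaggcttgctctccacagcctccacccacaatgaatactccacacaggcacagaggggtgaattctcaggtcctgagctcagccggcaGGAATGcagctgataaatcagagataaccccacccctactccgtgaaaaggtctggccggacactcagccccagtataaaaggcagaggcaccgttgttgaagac
Acta1, chr8:123894776-123895025, minus strand: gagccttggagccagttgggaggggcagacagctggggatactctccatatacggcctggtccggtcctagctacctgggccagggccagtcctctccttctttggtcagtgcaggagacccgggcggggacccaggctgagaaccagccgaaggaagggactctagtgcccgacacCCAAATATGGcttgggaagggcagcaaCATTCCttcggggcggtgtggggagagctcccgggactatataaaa
Ankrd1, chr19:36119845-36120094, minus strand: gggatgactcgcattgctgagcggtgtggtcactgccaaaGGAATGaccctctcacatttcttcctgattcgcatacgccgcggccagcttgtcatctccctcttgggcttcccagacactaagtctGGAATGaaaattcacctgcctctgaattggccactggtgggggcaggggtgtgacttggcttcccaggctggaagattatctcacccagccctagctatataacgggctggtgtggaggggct
Xirp2, chr2:67445752-67446001, plus strand: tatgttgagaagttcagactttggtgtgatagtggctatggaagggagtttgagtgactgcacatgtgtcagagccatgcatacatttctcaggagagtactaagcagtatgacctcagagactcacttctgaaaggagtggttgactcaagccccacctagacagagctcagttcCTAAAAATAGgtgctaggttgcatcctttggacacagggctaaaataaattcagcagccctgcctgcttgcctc
The motifs were the core of the M-CAT element, GGAATG or its reverse complement CATTCC, which TEAD factors are known to bind, the CArG box of serum response factor, and the site of MEF2, all searched on both strands. The M-CAT core began at base -105 of Nppb, at -46 of Acta1 and at -210 and -123 of Ankrd1, where -1 is the base just before the start. A CArG box began at -73 of Acta1 and a MEF2 site at -74 of Xirp2, and no match overlapped another. Among 32851 RefSeq promoter windows of the same length, 12.6% held the M-CAT core, 1.47% a CArG box and 2.92% a MEF2 site. RefSeq windows were matched by symbol for 7 of the 8 genes, all but Ccn2. The M-CAT core was also in 1 of the windows of Gdf15, and none of these letters was in the windows of Nmrk2 and Rcan1.

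Totals of estimated counts, in units of 1e6, ran between 28.1 and 33.02 in F11 hearts, 25.8 to 30.6 in GFP hearts, 16.8 to 26.3 in F11 adipose tissue and 15.9 to 22.5 in GFP adipose tissue. The labelled tissues carried their markers: the summed level of 10 cardiomyocyte genes was 53562 to 70558 counts per 1e6 TMM-scaled counts (CPM) in hearts, and that of 8 white adipocyte genes was 10212 to 29497 CPM in adipose libraries against 48.8 to 90.4 CPM in hearts. The F11 transcript averaged 6.55 ± 4.74 CPM in F11 adipose tissue and 1.11 ± 1.62 CPM in GFP adipose tissue (SD, n = 8 each), and it summed to 3 counts over the F11 hearts and 13 counts over the GFP hearts, so it does not check the vector in heart. Hepatocyte markers, from the cell type that AAV8 mainly transduces, summed to 13.3 to 5027 CPM over 7 genes in F11 adipose libraries and 53.8 to 5447 CPM in GFP adipose libraries. The highest F11 levels were 16.1 CPM in L146 and 9.14 CPM in L145 among F11 libraries, and 4.69 CPM in L136 and 2.28 CPM in L137 among GFP libraries. These 4 were the libraries with the most hepatocyte transcripts (2686.5, 5027, 5447 and 1548 CPM). F11 libraries with fewer of them had 7.65 (L143), 6.39 (L142), 5.04 (L141) and 2.16 CPM (L148) of F11, beside 76.0, 80.5, 13.3 and 63.3 CPM. L144 and L147 had 5.46 and 0.514 CPM of F11, beside 464.9 and 564.5 CPM. The other GFP libraries had 0 to 0.650 CPM of F11, beside 53.8 to 398.4 CPM. The part of hepatocyte transcripts in the F11 level was not tested. The GFP adipose library L140 held heart transcripts, with 9748 CPM of the cardiomyocyte genes, and L138, also GFP, had 199.4 CPM, against 36.02 to 77.8 CPM in F11 adipose libraries. Red cell transcripts stood out in the F11 heart L40 (3708 CPM over 5 genes) and the GFP heart L8 (4236 CPM), against 562.6 to 1050 CPM in the other hearts. Cardiomyocyte markers themselves differed between the heart groups, at 59641 to 70558 CPM in F11 hearts and 53562 to 56787 CPM in GFP hearts. Of the other 10 marker lists, none held a called gene in heart. Fold changes were positive for 0 of 7 atrial, 0 of 8 fibroblast, 5 of 8 endothelial, 3 of 8 mural, 2 of 8 macrophage, 0 of 6 white adipocyte, 0 of 7 mesothelial, 0 of 5 red cell, 0 of 1 hepatocyte and 4 of 5 fast skeletal muscle genes tested. For cardiomyocyte markers they were positive for 10 of 10, with 1 called higher, and the part of this difference in the results on the 8 genes was not tested.

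In heart, the stress genes did not separate the F11 from the GFP group. None of the 8 passed an adjusted p of 0.05 in edgeR's quasi-likelihood test with Benjamini-Hochberg adjustment, where 0.872% of the 14684 genes tested did. At an unadjusted p under 0.05 there were 2, Nmrk2 and Rcan1, where 12.5% of all genes tested stood under it. DESeq2 and limma voom called none of the 8 either, with 2 at an unadjusted p under 0.05 in each. These were Nmrk2 and Rcan1 in DESeq2. In limma voom they were Nmrk2 and Ankrd1 (unadjusted p = 0.04999 for Ankrd1), while Rcan1 was at 0.0565. Fold changes were positive for 6 of the 8 and for 47.5% of all genes, and the median log2 fold change was 0.15 for the 8 genes and -0.01 for all genes tested. The F11 and GFP libraries overlapped in CPM for each of the 8, and did not overlap for 1.10% of all genes. In bulk tissue, fewer cells of a type and less RNA per cell cannot be told apart.

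**Figure D1:**
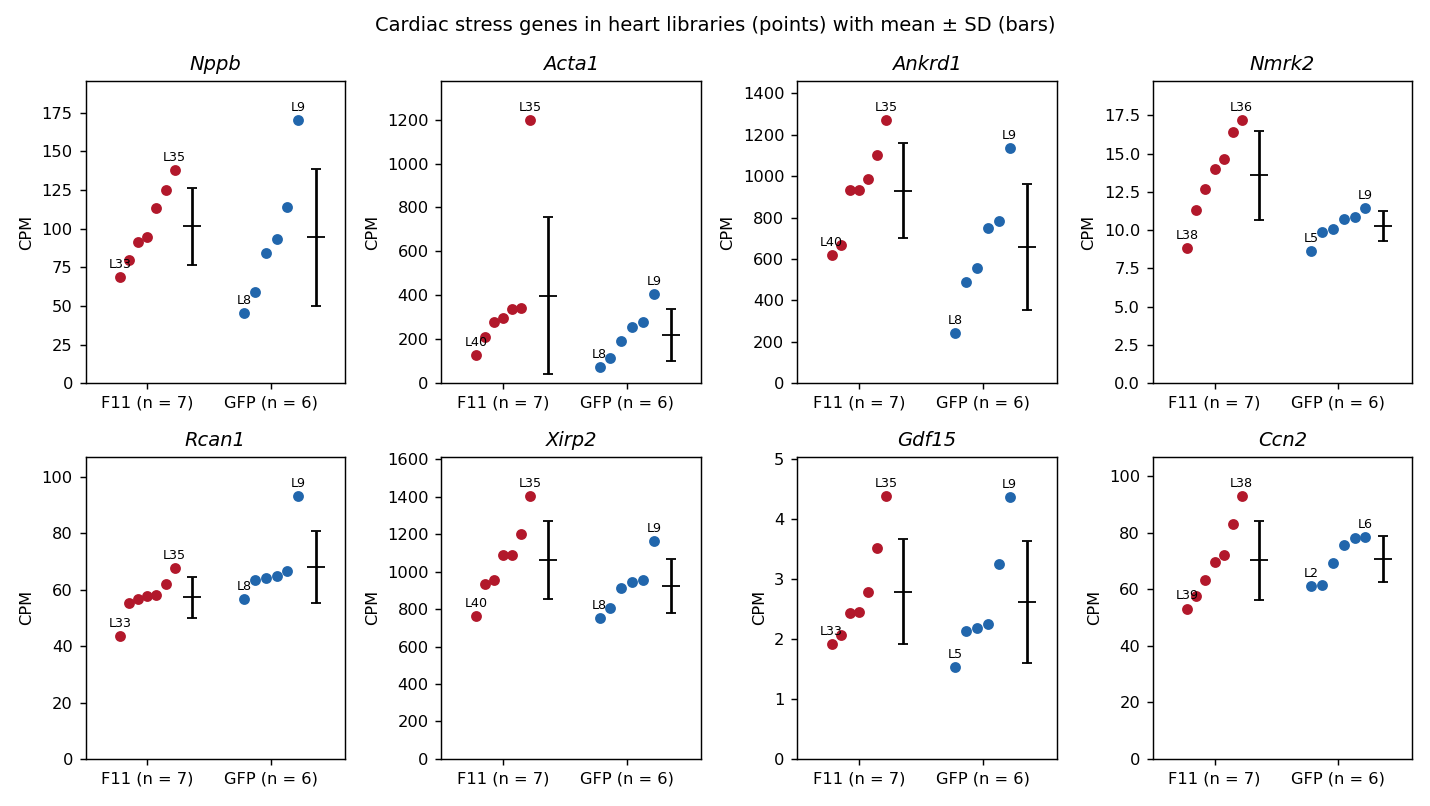
Level of each stress gene in counts per 1e6 TMM-scaled counts (CPM, linear axis from 0) in the 7 F11 hearts (red) and the 6 GFP hearts (blue), 1 point per library, sorted by value, with the mean and SD as bars beside the points. The groups overlap in every panel, L35 is the highest F11 heart in 6 panels and L9 the highest GFP heart in 7.

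Nppb encodes the precursor of BNP, a hormone that ventricular myocytes release when stretched. Its level in F11 hearts was 68.5 CPM at the lowest, 94.4 CPM at the median and 138.1 CPM at the highest, against 45.6, 88.6 and 170.0 CPM at the same points in GFP hearts. The GFP range enclosed the F11 range on both sides. The mean was 101.4 ± 24.98 CPM in F11 hearts (SD, n = 7) and 94.3 ± 44.4 CPM in GFP hearts (SD, n = 6). The log2 fold change was 0.10 (SE 0.29, adjusted p = 0.928), with an approximate 95% interval of -0.46 to 0.67.

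Acta1, the skeletal alpha-actin gene, is expressed in the fetal heart and again in the loaded adult ventricle. F11 hearts ran from 130.2 CPM over a median of 296.4 CPM to 1196 CPM, and GFP hearts from 75.4 CPM over a median of 224.3 CPM to 404.1 CPM. One F11 heart, L35, held the value of 1196 CPM, while the next F11 heart had 344.3 CPM, below the highest GFP heart. The mean was 399.1 ± 359.3 CPM in F11 hearts (SD, n = 7) and 220.5 ± 119.2 CPM in GFP hearts (SD, n = 6), and the log2 fold change stood at 0.86 (SE 0.54, adjusted p = 0.572). Without L35 the log2 fold change was 0.27. The summed level of 12 fast skeletal muscle genes, a check for stray skeletal muscle, was also highest in L35 (50.8 CPM, against 27.2 to 38.4 CPM in the other F11 hearts) and lowest in the GFP heart L8 (16.3 CPM), with 3 of the 12 at 1 CPM or more, and its part in the level of Acta1 was not tested. Of the stretches of 31 bases in Acta1 transcripts, 4.11% also occur in other genes, among them Actb, and none in the cardiac actin gene Actc1.

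Ankrd1 encodes a cardiac ankyrin repeat protein that binds titin in the I-band and shuttles to the nucleus. Its level was 621.3, 933.7 and 1269.7 CPM at the lowest, median and highest F11 heart, against 244.9, 651.7 and 1136 CPM in GFP hearts. Of the 7 F11 hearts, 6 lay above the GFP median and 1 above every GFP heart, and 3 GFP hearts lay below every F11 heart. The mean was 930.9 ± 227.7 CPM in F11 hearts (SD, n = 7) and 659.3 ± 304.1 CPM in GFP hearts (SD, n = 6), and the log2 fold change of 0.50 (SE 0.31) did not pass the test (adjusted p = 0.557).

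Xirp2, or myomaxin, is an actin-binding protein of the intercalated disc. F11 hearts spanned 763.9 to 1404 CPM with a median of 1087 CPM, and GFP hearts 755.3 to 1166 CPM with a median of 929.8 CPM. Again 6 of the 7 F11 hearts lay above the GFP median, and 2 lay above every GFP heart. The log2 fold change was 0.20 (SE 0.13, adjusted p = 0.584), so a rise beyond 0.46 lies outside its approximate 95% interval.

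Rcan1 encodes a regulator that inhibits calcineurin, and one of its promoters is itself a target of calcineurin and NFAT. Its level was 43.7, 57.8 and 67.7 CPM at the lowest, median and highest F11 heart, against 56.8, 64.5 and 93.2 CPM in GFP hearts. A single F11 heart lay above the GFP median, and the GFP heart L9 stood apart at 93.2 CPM from the next GFP value of 66.5 CPM. The mean was 57.4 ± 7.30 CPM in F11 hearts (SD, n = 7) and 68.1 ± 12.7 CPM in GFP hearts (SD, n = 6). The log2 fold change was -0.25 (SE 0.11, adjusted p = 0.395 in edgeR), and -0.14 without L9. Before adjustment over all genes the p was 0.0477. A table per gene does not show which of its promoters the transcripts came from.

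Nmrk2 encodes nicotinamide riboside kinase 2, a muscle enzyme that makes an NAD precursor and is induced in failing hearts. F11 hearts had 8.86 CPM at the lowest, 14.0 CPM at the median and 17.2 CPM at the highest, against 8.67, 10.4 and 11.5 CPM in GFP hearts. Of the 7 F11 hearts, 5 lay above every GFP heart, and L38 lay below all GFP hearts but 1. The mean was 13.6 ± 2.90 CPM in F11 hearts (SD, n = 7) and 10.3 ± 0.971 CPM in GFP hearts (SD, n = 6). Its log2 fold change of 0.40 (SE 0.13) had the lowest p of the 8 genes, 0.00839, but an adjusted p of 0.192 over all genes. Without L38 it was 0.48 with an adjusted p of 0.0223, the one setting tried in which any of the 8 genes passed in heart. Of its stretches of 31 bases, 19.1% also occur in other genes, among them Atcayos on the opposite strand, and without a stated strand setting the reads of that gene cannot be separated from its own.

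Gdf15 and Ccn2 encode secreted factors, a stress cytokine that acts on the brainstem to lower food intake and a matrix protein also known as connective tissue growth factor, a target of YAP and TGF-beta. Gdf15 was low, at 1.91 to 4.37 CPM in F11 hearts with a median of 2.45 CPM, and 1.53 to 4.36 CPM in GFP hearts with a median of 2.21 CPM. Its log2 fold change was 0.09 (SE 0.24, adjusted p = 0.926). Ccn2 was 53.2 to 92.9 CPM in F11 hearts with a median of 69.5 CPM, and 61.0 to 78.6 CPM in GFP hearts with a median of 72.4 CPM. Its log2 fold change was -0.01 (SE 0.12, adjusted p = 0.988), and its approximate 95% interval of -0.25 to 0.23 was the narrowest of the secreted factors. Summed fibroblast markers, from a cell type that transcribes Ccn2, were 1415 to 1769 CPM in F11 hearts and 1430.2 to 2050.1 CPM in GFP hearts. For Ccn2, 19.7% of the stretches of 31 bases also occur in other genes, among them Gm15270 on the opposite strand.

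**Figure D2:**
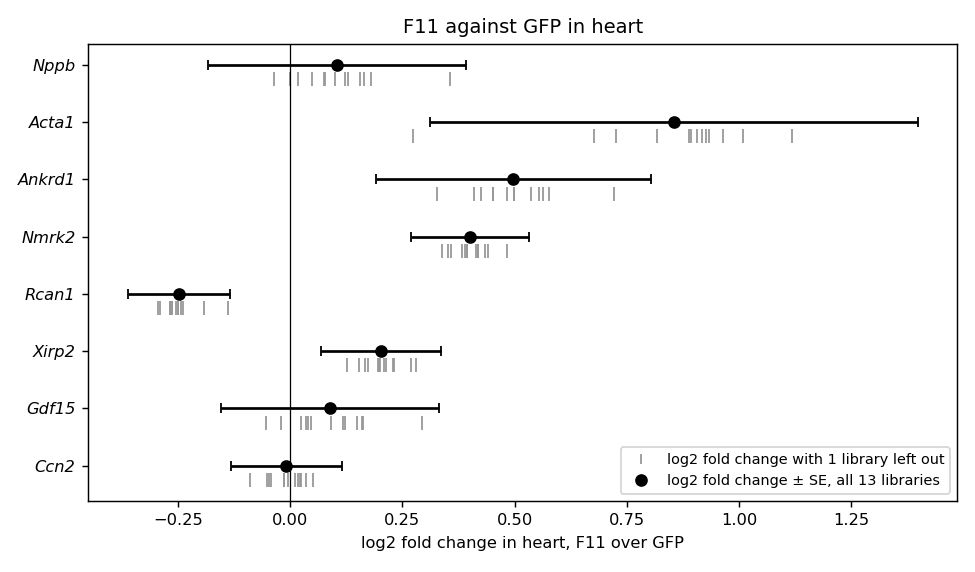
Log2 fold change in heart, F11 over GFP, of each stress gene from edgeR, with its standard error (black point and bar) and the values obtained when each of the 13 heart libraries was left out in turn (grey ticks). Acta1 has the widest spread of ticks, 0.27 to 1.12, and those of Nppb, Gdf15 and Ccn2 lie on both sides of 0.

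Levels per length, in transcripts per 1e6 (TPM), were computed from 1 typical transcript length per gene. By mean TPM, Ankrd1 was the most abundant of the 8 in F11 and in GFP hearts and Gdf15 the least. In the F11 heart L35, however, Acta1 (1160 TPM) exceeded Ankrd1 (928.3 TPM). In F11 hearts the means were 698.7 ± 176.0 TPM for Ankrd1, 394.7 ± 346.5 TPM for Acta1, 186.3 ± 45.3 TPM for Nppb, 127.6 ± 23.9 TPM for Xirp2, 41.4 ± 9.19 TPM for Ccn2, 37.1 ± 4.81 TPM for Rcan1, 10.5 ± 2.12 TPM for Nmrk2 and 2.72 ± 0.794 TPM for Gdf15 (SD, n = 7). In GFP hearts they were 500.7 ± 231.0 TPM for Ankrd1, 222.3 ± 119.5 TPM for Acta1, 175.2 ± 80.7 TPM for Nppb, 111.8 ± 16.2 TPM for Xirp2, 44.4 ± 7.96 TPM for Rcan1, 42.0 ± 5.72 TPM for Ccn2, 8.04 ± 0.859 TPM for Nmrk2 and 2.59 ± 0.985 TPM for Gdf15 (SD, n = 6). In GFP hearts the ranges of the libraries overlapped between Ankrd1 and Acta1, Acta1 and Nppb, Nppb and Xirp2, and Rcan1 and Ccn2. The lowest GFP value of Xirp2, 88.1 TPM, lay above the highest of Rcan1, 59.3 TPM, and Nmrk2 and Gdf15 also lay apart from their neighbours. The order of Rcan1 and Ccn2 differed between the groups, within the spread of both.

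The variation between hearts of the same group was large for these genes. The SD of log2(CPM + 1) within groups was 0.93 for Acta1, 0.58 for Ankrd1 and 0.52 for Nppb, where the median of the 12895 genes compared was 0.11. Only 0.248% of those genes varied more than Acta1, 0.861% more than Ankrd1 and 1.09% more than Nppb. Acta1 differed 15.9-fold between the highest and the lowest heart, L35 of the F11 group and L8 of the GFP group, and Ankrd1 differed 5.19-fold between the same libraries. The other 5 genes had SDs of 0.21 (Rcan1) to 0.35 (Gdf15), with 2.68 to 9.30% of genes varying more.

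The same libraries were high or low for several of the genes. L35 was the highest F11 heart for 6 of the 8 genes, and L9 was the highest GFP heart for 7 of the 8, all but Ccn2. L8 was the lowest of all 13 hearts for Nppb, Acta1, Ankrd1 and Xirp2. L8 was also the heart with the lowest atrial marker sum, 51.4 CPM over 7 genes, against 298.2 to 2882 CPM in F11 hearts and 770.8 to 3284 CPM in the other GFP hearts. L35 had 316.9 CPM and L9 813.5 CPM of these atrial genes, and their part in the levels was not tested. Leaving out L40 and L8, rich in red cell transcripts, gave log2 fold changes of 0.83 for Acta1, 0.41 for Ankrd1 and -0.01 for Nppb, and leaving out L35 and L9 gave 0.54, 0.64 and 0.27 for the same genes, with none of the 8 called in either case.

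**Figure D3:**
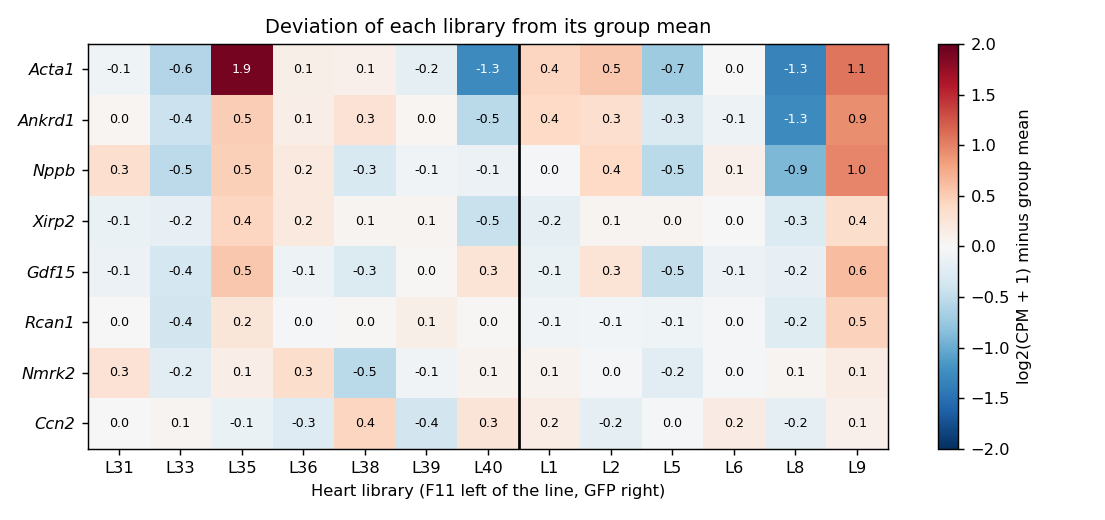
Deviation of each heart library from the mean of its own group, in log2(CPM + 1), for the 8 stress genes, with F11 libraries left of the line and GFP libraries right of it (red above, blue below the mean). Acta1, Ankrd1 and Nppb are above their group mean in L35 and L9 and below it in L33, L40, L5 and L8.

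These deviations were correlated over the 13 hearts for all 28 pairs of the genes, with 2-sided permutation p-values from 100000 resamples within groups and Benjamini-Hochberg adjustment over the pairs. Pearson's r passed an adjusted p of 0.05 for 9 pairs, and Spearman's rho also for 7 of these. The share of pairs of other genes that pass over these hearts was not computed, so the count cannot be set against other genes. The closest pair was Acta1 and Ankrd1, with r = 0.868 and rho = 0.962 (permutation p = 1e-05, the smallest these resamples can give, and adjusted p = 0.00028 for both). Without the 2 libraries farthest from the median of Acta1, L35 and L8, r was 0.955, and within the groups it was 0.882 over F11 hearts and 0.974 over GFP hearts. Acta1 and Xirp2 had r = 0.832 and rho = 0.753 (permutation p adjusted to 0.0106 for r). Ankrd1 and Xirp2 had r = 0.725 and rho = 0.731 (permutation p adjusted to 0.0117 for r). Without the 2 libraries farthest from the median of the first gene, r fell in each of the other pairs that passed. It was 0.723 for Acta1 with Xirp2 without L35 and L8, and 0.643 for Ankrd1 with Xirp2 without L8 and L9.

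Nppb varied with 2 of these genes: r was 0.842 with Ankrd1 and 0.778 with Acta1, with rho of 0.797 and 0.846 in that order (permutation p adjusted to 0.0117 and 0.0106 for r). Within the groups these r were 0.593 and 0.641 over F11 hearts, and 0.921 and 0.961 over GFP hearts. Nppb with Xirp2 did not pass (r = 0.619, rho = 0.621, permutation p adjusted to 0.0508 and 0.0812). Without its farthest libraries, L9 and L8, r of Nppb was 0.672 with Acta1, 0.612 with Ankrd1, 0.749 with Gdf15 and 0.583 with Rcan1. Nppb also varied with Gdf15 (r = 0.773, rho = 0.780), and Gdf15 with Rcan1 (r = 0.775, rho = 0.769). For Rcan1 with Nppb (r = 0.795, rho = 0.615) and with Ankrd1 (r = 0.728, rho = 0.511), r passed the adjustment and rho did not, at adjusted permutation p of 0.0624 and 0.153. Without L9 and L33, r of Rcan1 with Gdf15 was 0.617, and without L8 and L9, r of Ankrd1 with Rcan1 was 0.506. Ccn2 and Nmrk2 were in no pair that passed, and r between Ccn2 and the others lay between -0.443 (with Nmrk2) and 0.109 (with Ankrd1). The number of passing pairs was 6 without L35 or without L9 and 14 without L40.

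As a description over the same 13 hearts, the genes whose deviations followed each stress gene most closely were sought among 11978 genes. For Xirp2 these were Nrap (r = 0.946), an anchoring protein of the intercalated disc, and Slain2 (0.940). For Ankrd1 they were Synpo2l (0.930), an actin-associated protein of heart and skeletal muscle, and Btrc (0.927), and for Acta1 Sema3b (0.931) and Sorl1 (0.911). For Nppb they were Jpt1 (0.922) and Stk40 (0.919), for Rcan1 Itga5 (0.919) and Gas2l3 (0.911), and for Gdf15 Lhpp (0.932) and Uck2 (0.905). For Nmrk2 they were Mtfr1l (0.934) and Rnaset2a (0.878), and for Ccn2 Tmed3 (0.944) and P4hb (0.902). The r that the closest of 11978 genes reaches by chance over 13 hearts was not computed, so these values cannot be set against it.

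Genes that work with these 8 were followed in 9 lists, of which 104 of 109 genes were tested in heart. In edgeR's quasi-likelihood test 1 rose and 1 fell with F11, which is 1.92% of the 104, beside 0.872% of all genes tested. At an unadjusted p under 0.05 there were 24, or 23.1%, beside 12.5% of all genes. The lists were chosen with earlier results of these data known, so these shares cannot be read as a result on the lists. Fold changes were positive for 56 of the 104, or 53.8%, beside 47.5% of all genes, with a median log2 fold change of 0.02. Hspb7, a small heat shock protein of the sarcomere, rose to 1896 ± 161.2 CPM in F11 hearts (SD, n = 7), against 1522 ± 117.2 CPM in GFP hearts (SD, n = 6), or by 0.32 on the log2 scale (SE 0.06, adjusted p = 0.0118). All 7 F11 hearts lay above the GFP median, and the call was lost in a fit over both tissues (adjusted p = 1). It was the one gene called among 13 tested in the list of Z-disc and intercalated disc stress proteins, where 11 fold changes were positive. The summed cardiomyocyte markers, which did not overlap between the groups (59641 to 70558 CPM in F11 hearts and 53562 to 56787 CPM in GFP hearts), moved the same way as these genes, and their part in the result was not tested. Vgll4, a cofactor that competes with YAP for TEAD, fell to 12.3 ± 1.204 CPM in F11 hearts (SD, n = 7), against 15.6 ± 1.39 CPM in GFP hearts (SD, n = 6), or -0.34 on the log2 scale (SE 0.07, adjusted p = 0.0227). The call on Vgll4 was lost when L5, L9, L33, L35 or L39 was left out, at adjusted p of 0.0516 to 0.0571, when L9 and L35 were left out together (0.107), and in a fit over both tissues (0.196). Yap1 itself was at 77.1 ± 3.58 CPM in F11 hearts and 86.8 ± 5.41 CPM in GFP hearts (adjusted p = 0.0837), and 5 of the 14 genes of this list had positive fold changes.

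The other 7 lists had no call in heart. In the natriuretic peptide list 3 of 7 fold changes were positive, and the receptor gene Npr1 had 18.9 ± 1.29 CPM in F11 hearts and 22.4 ± 2.32 CPM in GFP hearts (adjusted p = 0.0894). In the list of fetal and smooth-muscle contractile genes 1 of 7 was positive, Myh7, the slow myosin heavy chain that rises in loaded mouse hearts. Myh7 had 454.8 ± 139.8 CPM in F11 hearts and 265.3 ± 67.5 CPM in GFP hearts, which is 0.78 on the log2 scale (SE 0.21, adjusted p = 0.119), with 7 of 7 F11 hearts above the GFP median. Positive fold changes numbered 7 of 14 in the calcineurin and NFAT list, 9 of 15 in the integrated stress response list, 5 of 11 in the NAD list, 7 of 14 in the profibrotic matrix list and 10 of 12 among the immediate early genes. The lowest p of the first 3 of these lists belonged to Cabin1, an inhibitor of calcineurin (log2 fold change 0.17, adjusted p = 0.144), Ddit3, the stress transcription factor CHOP (0.21, adjusted p = 0.192), and Parp1, an enzyme that consumes NAD (0.08, adjusted p = 0.456). Ier2, an immediate early gene, differed by 0.26 on the log2 scale (adjusted p = 0.356). Other genes named from these lists were Mme, the enzyme neprilysin that degrades natriuretic peptides (-0.22), Cnn1, a smooth muscle calponin (-0.84), Nfatc1 (0.08), Mthfd2, a mitochondrial folate enzyme (0.40), Sirt3, a mitochondrial NAD-dependent deacylase (-0.08), Col3a1, a fibrillar collagen (-0.23), and Fos (0.79), with log2 fold changes in parentheses and adjusted p of 0.208 to 0.561.

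In adipose tissue the level of the 8 genes relative to heart differed widely. Nppb, Nmrk2, Ankrd1 and Xirp2 were under 2 CPM in all libraries but L140 and, for Ankrd1 and Xirp2, L138. For Rcan1 the median of the 15 libraries other than L140 was 53.6% of the GFP heart mean, for Ccn2 49.9% and for Gdf15 65.5%. For Acta1 it was 6.67%. For Nmrk2 it was 1.29%. For Ankrd1 it was 0.223%, for Nppb 0.109% and for Xirp2 0.0603%, within the span of 0.0412 to 0.249% of the same medians for 10 cardiomyocyte markers. The percents compare CPM that was scaled within each tissue. Mitochondrial transcripts were 31.6 to 34.6% of counts in GFP hearts, 4.05 to 11.1% in GFP adipose and 3.89 to 6.71% in F11 adipose libraries. Mean TPM in GFP adipose tissue and GFP hearts was 36.2 and 44.4 for Rcan1 and 29.6 and 42.0 for Ccn2. For Gdf15 it was 2.95 and 2.59, and 2.02 and 2.72 in the F11 groups. Mean CPM of Gdf15 in adipose tissue and heart was 2.09 and 2.62 in the GFP groups and 1.40 and 2.79 in the F11 groups. The order of Gdf15 between tissues thus depended on the scale in the GFP groups only. A count of 3 equals 0.114 to 0.202 CPM in these libraries, and Nppb had 1 to 5 counts per library other than L140.

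Rcan1 averaged 35.6 ± 3.61 CPM in F11 adipose tissue and 39.4 ± 5.18 CPM in GFP adipose tissue (SD, n = 8 each). Ccn2 averaged 37.9 ± 11.9 CPM in F11 adipose tissue and 35.4 ± 4.55 CPM in GFP adipose tissue. Gdf15 averaged 1.40 ± 0.866 CPM in F11 adipose tissue and 2.09 ± 0.950 CPM in GFP adipose tissue, with the highest values in L148 (3.13 CPM) among F11 libraries and in L133 (3.92 CPM) among GFP libraries. The groups overlapped for all 3 genes. The log2 fold changes were -0.14 (SE 0.08), 0.11 (SE 0.17) and -0.57 (SE 0.38) for Rcan1, Ccn2 and Gdf15.

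L140 held Ankrd1, Xirp2, Nppb and Nmrk2 at 13.8 to 31.1% of the GFP heart mean, with 205.1 CPM of Ankrd1, 127.6 CPM of Xirp2, 14.8 CPM of Nppb and 2.90 CPM of Nmrk2. In the other 15 adipose libraries, Ankrd1 was 0.824 to 3.92 CPM and Xirp2 0.110 to 3.48 CPM, both highest in L138, and Nppb was 0.0490 to 0.276 CPM. The 10 cardiomyocyte markers stood at 9.66% (Ttn) to 28.6% (Tnnt2) of the heart mean in L140. Acta1 in L140 was 88.9 CPM, 40.3% of the heart mean, where the other 15 libraries had 9.45 to 27.2 CPM. Rcan1 and Ccn2 in L140 lay within the range of the others, and Gdf15 was the lowest GFP value at 0.741 CPM.

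**Figure D4:**
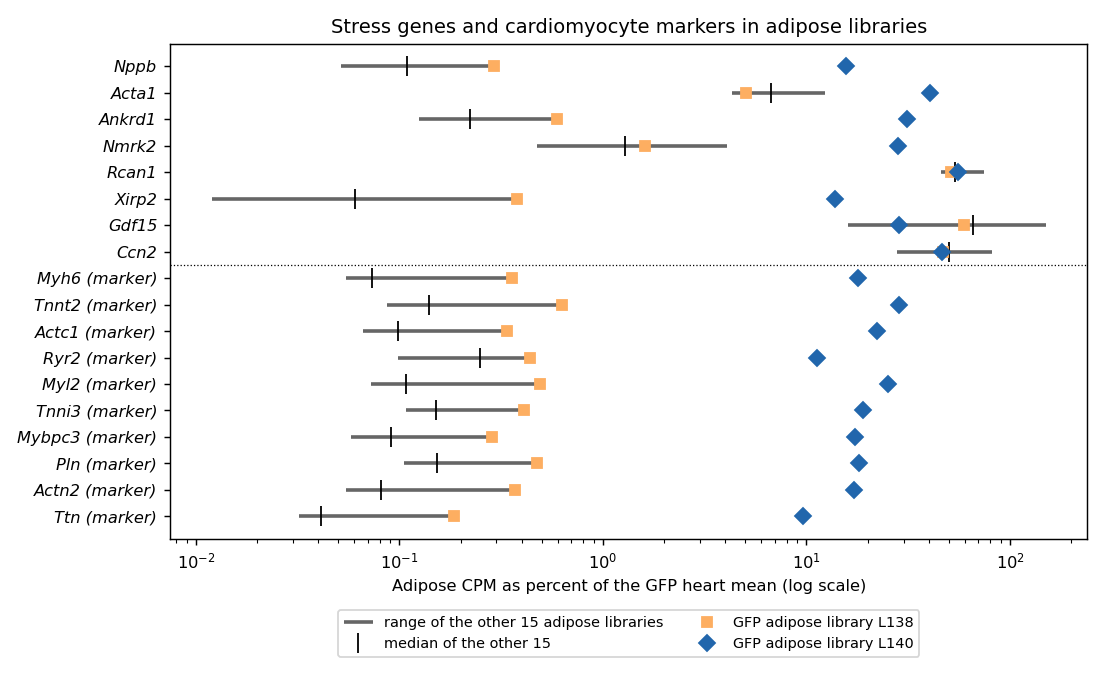
Level in adipose libraries as a percent of the GFP heart mean (log axis) for the 8 stress genes and 10 cardiomyocyte markers: the grey line is the range and the black tick the median of the 15 libraries other than L140, the blue diamond is L140 and the orange square L138. The percents compare CPM that was scaled within each tissue. L140 stands apart from the line for Nppb, Acta1, Ankrd1, Nmrk2, Xirp2 and all 10 markers, and lies within it for Rcan1, Gdf15 and Ccn2.

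Between the adipose groups, 6 of the 8 genes passed the filter on low counts, all but Nppb and Nmrk2, and none of the 6 was called by edgeR, where 0% of the 15229 genes tested were. Positive fold changes numbered 1 of the 6, that of Ccn2, and 49.8% of all genes, and the groups overlapped for each of the 8 where 0.0197% of all genes did not. At an unadjusted p under 0.05 there were 2 of the 6 and 4.19% of all genes. DESeq2 and limma voom called none of the stress genes, with 0 and 1 at an unadjusted p under 0.05, and over all genes they called 6 and 0. The 2 genes were Ankrd1, at 1.36 ± 0.268 CPM in F11 and 27.2 ± 71.9 CPM in GFP adipose tissue, and Xirp2, at 0.571 ± 0.342 CPM in F11 and 16.9 ± 44.8 CPM in GFP adipose tissue (SD, n = 8 each). Their log2 fold changes of -4.31 (SE 1.251) and -4.87 (SE 1.39), both with an adjusted p of 0.939, were -0.39 and -0.85 without L140. Without both L140 and L138 they were -0.08 and -0.15. The log2 fold change of Acta1 was -0.64 (SE 0.40) with all libraries and -0.07 without L140 and L138. Of the 9 lists, 100 genes could be tested in adipose tissue, and edgeR called none. At an unadjusted p under 0.05 there were 10, or 10%, beside 4.19% of all genes. The lists were chosen with earlier results known, so this share cannot be read as a result on them. Among the 10 were Nrap, Myh7, Csrp3, Myoz2 and Nppa, each highest in L140. L140 had 125.8, 107.0, 103.3 and 94.8 CPM of the first 4, against 4.47, 1.93, 2.21 and 1.44 CPM in the next library. Nppa, the gene of the atrial peptide, had 0.711 ± 0.252 CPM in F11 adipose tissue and 18.2 ± 48.5 CPM in GFP adipose tissue (SD, n = 8 each), with 138.1 CPM in L140 and 2.1 CPM in the next GFP library. Nupr1, a stress-induced chromatin protein, had 51.7 ± 4.65 CPM in F11 adipose tissue and 60.3 ± 5.40 CPM in GFP adipose tissue, and 0 of 8 F11 values exceeded the GFP median (adjusted p = 0.939).

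The difference between the tissues in the F11 effect, heart minus adipose, was tested as an interaction over all 29 libraries. None of the 8 genes passed in edgeR, where 0.0242% of the 16526 genes tested did. At an unadjusted p under 0.05 in edgeR stood 5 of the 8 and 7.43% of all genes. Without L140 there were 2 of the 8, Ankrd1 and Xirp2, and 8.72% of all genes, and without L140 and L138 there were 0 of the 8 and 8.42% of all genes. Among the 5 with all libraries were Nppb and Nmrk2, which failed the adipose filter and entered this fit through their heart counts. Their adipose side rests on few counts and on L140, so this test cannot decide a tissue difference for them. DESeq2 called 3 of the 8, where it called 0.662% of the 28247 genes it tested, and limma voom called none of the 8. Those 3 were Xirp2, Ankrd1 and Nppb, with log2 differences in edgeR of 5.06, 4.80 and 4.45 (adjusted p = 0.289, 0.289 and 0.370) and adjusted p of 0.00146, 0.00929 and 0.0218 in DESeq2. Without L140 the differences in edgeR were 1.05, 0.88 and 0.79, with adjusted p of 0.570, 0.556 and 0.831. Without both L140 and L138 they were 0.37, 0.58 and 0.56, with adjusted p of 0.850, 0.726 and 0.909. Rcan1 and Ccn2 had tissue differences of -0.10 (SE 0.14) and -0.10 (SE 0.22), with adjusted p of 0.966 and 0.986.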

How the data were processed

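RNA was purified with a miRNeasy kit and sequenced from Nugen Universal Plus mRNA libraries, per the labels' protocols. The values the authors deposited are estimated counts per gene. The submitters' processing notes name kallisto 0.46 and the build GRCm38.p6, and 30.8% of the values were not whole (tolerance 1e-06). How transcripts became genes, with which annotation and strand option, is not given in the sources used here. Of 36558 gene IDs, 35856 were given a symbol from GENCODE vM21.

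Groups were taken from the sample titles, which name 30 libraries, 29 of them in the table. Within groups, 0 pairs of libraries held identical values (lowest chi-square per degree of freedom 3.36). Estimated counts were rounded and tested with edgeR 4.0.16 in R 4.3.3 (filterByExpr, TMM scaling, robust quasi-likelihood test, 2-sided, Benjamini-Hochberg adjusted p under 0.05 over all genes of each tissue). Adjusted p-values come from it unless another tool is named, and fold changes give F11 over GFP. The tissue difference was an interaction contrast over both tissues. Approximate intervals are the log2 fold change ± 1.96 SE. TPM used the median GENCODE transcript length, not the length kallisto used. Limits of 3 counts cover counting error only.

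The 8 genes, the 9 pathway lists and the 11 marker lists were chosen with earlier results of these data known. Named were the 8 genes, up to 4 called genes of each list, or up to 2 with the lowest p where fewer than 2 were called, and the 2 genes with the highest r to each of the 8 among those of at least 1 CPM. A selected gene is not reported here. The alternatives were RLE scaling, no filter, a minimum mean of 1 CPM, DESeq2 1.42.0, limma 3.58.1 voom with quality weights, no mitochondrial transcripts, a threshold of 0.1, a fit over both tissues and each library left out. Added after seeing the data were fits without groups of libraries (L8 and L40, L9 and L35, L138 and L140, and those rich in hepatocyte transcripts), the alternatives for the lists, and pairs with each heart left out. On simulated data the heart fit recovered 42, 84, 94 and 96% of genes changed 1.25, 1.5, 2 and 4-fold over 14564 genes, with 6 false calls among 164. For the same changes the adipose fit recovered 10, 46, 64 and 86%, and the tissue difference 4, 42, 64 and 90%. The changed genes were drawn at random, so these rates do not hold for genes as variable between hearts as Acta1, Ankrd1 and Nppb. Each simulated gene had the same mean level in heart and adipose tissue. The rates for the tissue difference therefore do not hold for genes far lower in adipose tissue, as Nppb, Ankrd1, Xirp2 and Nmrk2 were.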

Additional observations from a re-analysis of the deposited data

Results flagged for a closer look

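Of 32 sets of values (8 genes in 4 groups), 7 had a highest library set apart from the rest by Dixon's criterion, which chance alone meets in about 1 in 20. In GFP adipose tissue the library was L140 in 5 of them, with 14.8 CPM of Nppb, 88.9 CPM of Acta1, 205.1 CPM of Ankrd1, 2.90 CPM of Nmrk2 and 127.6 CPM of Xirp2, against 0.276, 22.4, 3.92, 0.333 and 3.48 CPM in the next library. L140 also held 9748 CPM of cardiomyocyte markers. Acta1 in the F11 heart L35 was 1196 CPM, against 344.3 CPM in the next F11 heart. Rcan1 in the GFP heart L9 was 93.2 CPM, against 66.5 CPM in the next GFP heart.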

How the results depend on the processing

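No paired analysis was possible because the groups share no replicate numbers. Of the 370 alternative values for single genes, 345 kept their direction and their side of the threshold, 16 reversed, 8 fell short of the threshold and 1 passed it. None of the 8 stress genes was called in heart under the alternatives, except 1 without L38 (0 to 1 over libraries left out). The tissue difference was called for 3 with DESeq2, among them Nppb, which failed the filter on low counts in adipose tissue. Over all genes in heart 128 were called, against 373 with DESeq2, 205 with limma voom, 30 in the fit over both tissues and 70 without L9 and L35. For the tissue difference 4 genes were called by edgeR, 187 by DESeq2 and 24 by limma voom. Among the lists, genes higher in heart numbered 2 with DESeq2, 0 in the fit over both tissues, 2 without L9 and L35 and 1 to 2 with 1 library left out. Genes lower numbered 3 with DESeq2, 3 at a threshold of 0.1, 0 in the fit over both tissues, 2 without L8 and L40, 0 without L9 and L35 and 0 to 2 with 1 library left out. Pairs that passed numbered 6 to 14 with 1 library left out. The causes were not tested.

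Small fold changes changed sign. In heart Nppb lay between -0.0366 and 0.36, Gdf15 between -0.0547 and 0.29 and Ccn2 between -0.0887 and 0.0504 with 1 library left out. Nppb was -0.0134 and Gdf15 -0.0286 without L8 and L40, and Ccn2 was 0.0393 without L9 and L35. In adipose tissue Acta1 was 0.00876 with DESeq2 and -0.79 to 0.00279 with 1 library left out, and Ccn2 was -0.00461 with limma voom and -0.0116 to 0.20 with 1 library left out. The spread between hearts limits Acta1, Ankrd1 and Nppb, and depth limits Nppb and Nmrk2 in adipose tissue, with 1 to 5 counts of Nppb per library other than L140.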
